A study of Rattus norvegicus with 12 samples.

Results

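Psat1, Psph and Asns are the 3 genes described here, chosen because they are known targets of the amino acid stress response and because the study's supplementary table of differentially expressed genes (DEGs) gives them a symbol. They are 3 of 13348 genes tested and of 30562 genes in the count tables. The tables list Ensembl identifiers only, so each symbol was joined to its gene through the mean normalised count that the supplementary table gives, and each of the 3 found 1 candidate. That table holds the DEGs of CTK-2 versus CTL called on these same libraries, so a gene without a difference there could not have been chosen.

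RNA was sequenced from primary oligodendrocyte precursor cells (OPCs) of the cortex of wild-type Sprague-Dawley rat pups, males and females pooled, shaken off mixed glial cultures and moved to a differentiating medium with the thyroid hormone T3. Cells of CTL received neither cytokines nor agonist, those of GAL received 10 nM galinex, an agonist of the receptor GPR17, those of CTK-2 received 2 ng/mL each of the cytokines TNF-α, IFN-γ and IL-1β, and those of CTK2+GAL received both. Galinex or its vehicle DMSO was added after 6 h of cytokines, and RNA was taken 24 h later. Each group had 3 libraries.

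Serine is made from a glycolytic intermediate by a chain of Phgdh, Psat1 and Psph. Psat1 transfers an amino group from glutamate to give phosphoserine, and Psph removes the phosphate. Asns makes asparagine from aspartate with the amide nitrogen of glutamine. When amino acids run short, uncharged tRNA activates the kinase Gcn2, translation of the transcription factor Atf4 rises, and Atf4 with C/EBP partners switches on these genes through C/EBP-ATF response elements. Serine supplies glycine, folate-bound carbon units, phosphatidylserine and the sphingolipids that myelin is rich in. Neither Phgdh nor Atf4 has a symbol in the supplementary table, and both were not analysed here.

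In the build mRatBN7.2, Psat1 (ENSRNOG00000013971) is on the minus strand of chromosome 1 from 213196709 to 213218682, with 2187 bases of exon. Psph (ENSRNOG00000000925) lies on the plus strand of chromosome 12 from 26883133 to 26905074, with 1520 bases of exon. Asns (ENSRNOG00000007546) lies on the minus strand of chromosome 4 from 35785237 to 35803423, with 2454 bases of exon. None of the 3 overlaps another annotated gene on its strand, and the counts cover their exons.

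The 250 bases before each start site are shown because the 3 genes fell together under cytokines. The sequences are from RefSeq in the build GRCr8, at chr1:222645409-222645658 on the minus strand for Psat1, chr12:32526841-32527090 on the plus strand for Psph and chr4:36769416-36769665 on the minus strand for Asns. Capitals mark GC boxes (GGGCGG or, on the other strand, CCGCCC) and CCAAT boxes (CCAAT or ATTGG), which were chosen after the sequences were seen.
Psat1: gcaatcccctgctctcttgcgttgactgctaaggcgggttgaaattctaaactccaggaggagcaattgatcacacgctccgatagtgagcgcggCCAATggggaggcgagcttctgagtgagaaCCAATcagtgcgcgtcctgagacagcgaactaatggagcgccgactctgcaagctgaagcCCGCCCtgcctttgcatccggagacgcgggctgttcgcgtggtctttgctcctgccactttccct
Psph: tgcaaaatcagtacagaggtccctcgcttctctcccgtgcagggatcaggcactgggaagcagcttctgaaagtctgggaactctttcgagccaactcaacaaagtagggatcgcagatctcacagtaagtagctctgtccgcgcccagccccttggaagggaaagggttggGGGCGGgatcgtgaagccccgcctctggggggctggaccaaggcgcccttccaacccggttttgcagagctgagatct
Asns: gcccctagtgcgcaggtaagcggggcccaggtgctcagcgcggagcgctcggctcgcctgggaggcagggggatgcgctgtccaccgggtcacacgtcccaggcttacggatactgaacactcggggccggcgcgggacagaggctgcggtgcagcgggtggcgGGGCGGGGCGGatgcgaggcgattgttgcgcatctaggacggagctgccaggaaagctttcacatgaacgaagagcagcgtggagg

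All 3 promoters held a GC box, a sequence bound by Sp1 and related factors, against 30.5% of 33469 rat promoter windows of that length. Because the boxes were picked from these 3 sequences, this is a description and no test. The windows were not matched for GC content. Psat1 also held 2 CCAAT boxes, which 34% of windows contain at least once, and Psph and Asns held none. The GC content was 58% in Psat1, 58.4% in Psph and 68.8% in Asns, against a median of 51.2% over all windows. The core of the C/EBP-ATF response element, TGATGNAA or TTNCATCA on the other strand, was in 3.98% of the windows of 300 bases that reach 50 bases past the start. None of the 3 windows held these letters, which says nothing about sites elsewhere or about other spellings.

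The library totals lay between 2600797 counts in GAL replicate 1 and 8978185 in CTK2+GAL replicate 3. CTL replicate 3 and GAL replicate 3 stood apart in interferon genes. Tap1, a peptide transporter of antigen presentation, was at 207 and 182 CPM (counts scaled to a common normalised library size) in these libraries, between 5.82 and 8.15 CPM in the other CTL and GAL libraries and between 804 and 841 CPM in the 6 cytokine libraries. Irf1, an interferon-induced transcription factor, was at 77.0 and 65.3 CPM against 2.98 to 4.99 CPM in the other CTL and GAL libraries, and at 590 CPM or more under cytokines. Both genes were picked after their values were seen, and the values of the 3 genes are given below with and without these 2 libraries.

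The cells carried OPC and oligodendrocyte markers. A marker had a symbol only if it was a DEG of CTK-2 versus CTL in the study's table. A difference with cytokines was thus a condition of being shown, and unchanged markers of these lists are missing. Pdgfra and Cspg4, the 2 of 4 fixed OPC markers with a symbol, summed to 510 to 590 CPM in the CTL and GAL libraries and to 1139 to 1302 CPM in the cytokine libraries. Of the 5 oligodendrocyte markers, Mag was at 153 to 198 CPM without and 73.7 to 88.3 CPM with cytokines, and Mog at 5.84 to 6.98 CPM without and 1.85 to 3.91 CPM with them. Of the other lists, Aldoc (astrocytes, 1 of 6) was at 229 to 286 CPM without and 152 to 168 CPM with cytokines. Tubb3 (neurons, 1 of 4) was at 80.05 to 98.7 CPM without and 156 to 189 CPM with them, and Csf1r (microglia, 1 of 6) was at 0.398 to 3.09 CPM without and 1.56 to 5.23 CPM with them. None of the markers named here was at 0 in all libraries, and the part of these markers in the results was not tested. In bulk RNA, fewer cells of a type and less RNA per cell cannot be told apart.

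Psat1 was the most abundant of the 3 genes. In CTL it was at 227, 225 and 223 CPM in replicates 1, 2 and 3, from 1134 to 1378 counts. In GAL it was at 215, 245 and 239 CPM, in CTK-2 at 90.8, 89.2 and 88.2 CPM, and in CTK2+GAL at 92.2, 105 and 97.5 CPM. Every cytokine library lay below every library without cytokines, with a gap from 105 to 215 CPM. The group means were 225 ± 1.67 in CTL, 233 ± 15.9 in GAL, 89.4 ± 1.30 in CTK-2 and 98.4 ± 6.69 CPM in CTK2+GAL (SD, n = 3 each). The CTL and GAL libraries overlapped, while the 3 CTK2+GAL libraries were above the 3 CTK-2 libraries.

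Psph, the phosphatase of the last step to serine, was at 33.4, 41.5 and 41.2 CPM in the 3 CTL replicates and at 30.3, 42.0 and 39.9 CPM in GAL. Under cytokines it was at 27.0, 23.6 and 19.6 CPM in CTK-2 and at 18.9, 28.2 and 26.5 CPM in CTK2+GAL. The cytokine libraries again lay below the others, but the gap was small, from 28.2 CPM in CTK2+GAL replicate 2 to 30.3 CPM in GAL replicate 1. GAL replicate 1 held only 78 counts of Psph, the lowest number of any of the 3 genes in any library. The means were 38.7 ± 4.61 in CTL, 37.4 ± 6.27 in GAL, 23.4 ± 3.68 in CTK-2 and 24.5 ± 4.98 CPM in CTK2+GAL (SD, n = 3 each). CTL overlapped GAL, and CTK-2 overlapped CTK2+GAL.

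Asns, the asparagine synthetase, was at 62.6, 62.4 and 56.1 CPM in CTL and at 68.7, 65.0 and 65.1 CPM in GAL. It was at 23.0, 26.9 and 22.4 CPM in CTK-2 and at 26.4, 29.5 and 26.0 CPM in CTK2+GAL. No cytokine library exceeded 29.5 CPM and no other library was below 56.1 CPM. The means were 60.4 ± 3.70 in CTL, 66.3 ± 2.09 in GAL, 24.1 ± 2.43 in CTK-2 and 27.3 ± 1.88 CPM in CTK2+GAL (SD, n = 3 each). The GAL libraries were above the CTL libraries without overlap, and the CTK-2 and CTK2+GAL libraries overlapped.

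**Figure D1:**
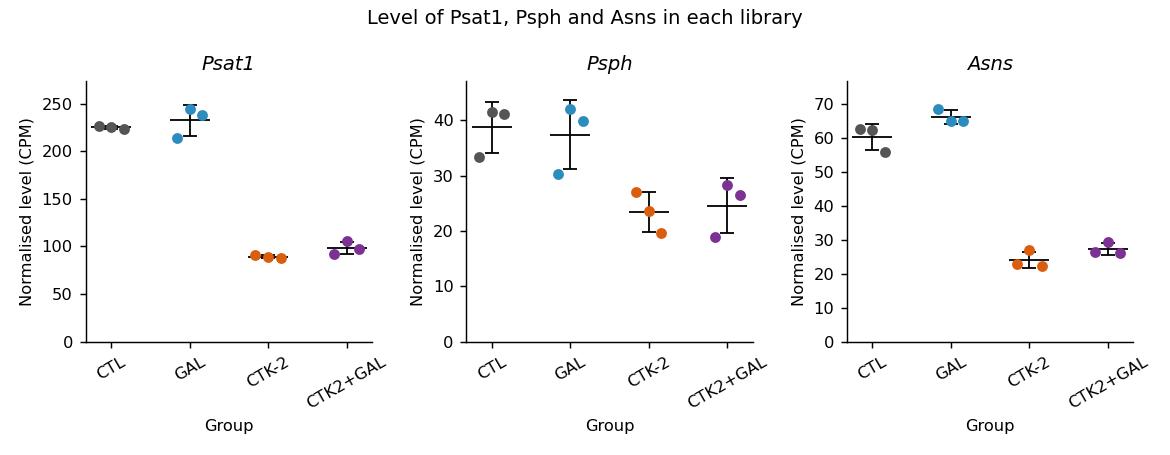
Level of Psat1, Psph and Asns in each of the 12 libraries, in CPM on a linear axis from 0, by group; points are libraries, and lines with bars are the group mean and SD (n = 3). In all 3 genes the 6 libraries with cytokines sit below the 6 without, with the narrowest gap in Psph.

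Levels per kb of exon give a rough comparison between genes. The length counts all annotated exons of a gene, so it may differ from that of the transcripts present. Psat1 was the highest of the 3 in every group, at 103 CPM per kb in CTL and 40.9 CPM per kb in CTK-2. Psph and Asns were close in CTL, at 25.5 ± 3.03 and 24.6 ± 1.51 CPM per kb (SD, n = 3 each), and did not differ beyond their spread. In CTK-2 Psph was at 15.4 ± 2.42 and Asns at 9.82 ± 0.991 CPM per kb, and in CTK2+GAL at 16.1 ± 3.28 and 11.1 ± 0.765 CPM per kb (SD, n = 3 each). The ratio of Asns to Psph was 0.528 to 0.868 in the 6 cytokine libraries and 0.844 to 1.41 in the 6 others, and these ranges overlapped through CTL replicate 3.

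The effect of cytokines was tested between CTK2+GAL and GAL, which share no library with the contrast behind the symbols. The spread was estimated over all 12 libraries, those of CTL and CTK-2 included. Deviations of same-numbered CTL and GAL libraries from their group means also correlated, at 0.378, 0.4 and 0.753 for replicates 1, 2 and 3. CTL replicate 1, however, correlated more with a GAL library of another number. The test is therefore not fully independent of that contrast. Psat1 fell by 1.25 on the log2 scale (standard error 0.06, 95% interval -1.38 to -1.12), to 42.1% of its level in GAL. The adjusted p was 2.76e-11 (quasi-likelihood test of edgeR, Benjamini-Hochberg adjusted over all genes), with 3 of 3 libraries below every GAL library. Asns fell by 1.28 (standard error 0.09, 95% interval -1.46 to -1.10), to 41.3%, with an adjusted p of 1.24e-09 in the same edgeR test and again no overlap. Psph fell by 0.63 (standard error 0.15, 95% interval -0.94 to -0.33), to 64.4%, with an adjusted p of 0.00197 by edgeR and no overlap.

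All 3 genes were DEGs and lower, a DEG being a gene whose adjusted p did not exceed 0.05 and whose log2 fold change was 0.59 or more in either direction. Of all 13348 genes tested, 766 or 5.74% were called lower in CTK2+GAL versus GAL and 1558 or 11.7% higher, while 24% had every CTK2+GAL library below every GAL library. Of the 573 genes with a symbol and a lower level in CTK-2 than in CTL, 468 or 81.7% were called lower in CTK2+GAL versus GAL, which is the share to set these 3 calls against. In size, 165 genes (1.24%) had a lower log2 fold change than Psat1 and 151 (1.13%) a lower one than Asns, against 844 (6.32%) for Psph. These ranks are over all genes tested, which is no like comparison because the 3 genes had to be DEGs of CTK-2 versus CTL.

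The calls for Psat1 and Asns held under all 22 alternatives tried, with log2 fold changes from -1.30 to -1.20 and from -1.33 to -1.23. Without CTL replicate 3 and GAL replicate 3, Psat1 was at -1.24, Psph at -0.61 and Asns at -1.29, and all 3 were called (largest adjusted p 0.00147, edgeR). The Psph call depended on single libraries. Without GAL replicate 2 its log2 fold change was -0.55 (adjusted p = 0.0192, edgeR) and without CTK2+GAL replicate 1 it was -0.50 (adjusted p = 0.0108, edgeR), both under the fold threshold.

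In CTK-2 versus CTL, given as a description because the symbols came from it, the log2 fold changes were -1.33 for Psat1 (standard error 0.06), -0.73 for Psph (standard error 0.15) and -1.32 for Asns (standard error 0.09). The levels in CTK-2 were 39.7%, 60.35% and 40.1% of those in CTL, and in each gene the CTK-2 libraries all lay below the CTL libraries. Without CTL replicate 3 and GAL replicate 3 the log2 fold changes were -1.34, -0.68 and -1.37. Over all genes, 773 or 5.79% were called lower and 1538 or 11.5% higher in this contrast, and 23.8% had every CTK-2 library below every CTL library.

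**Figure D2:**
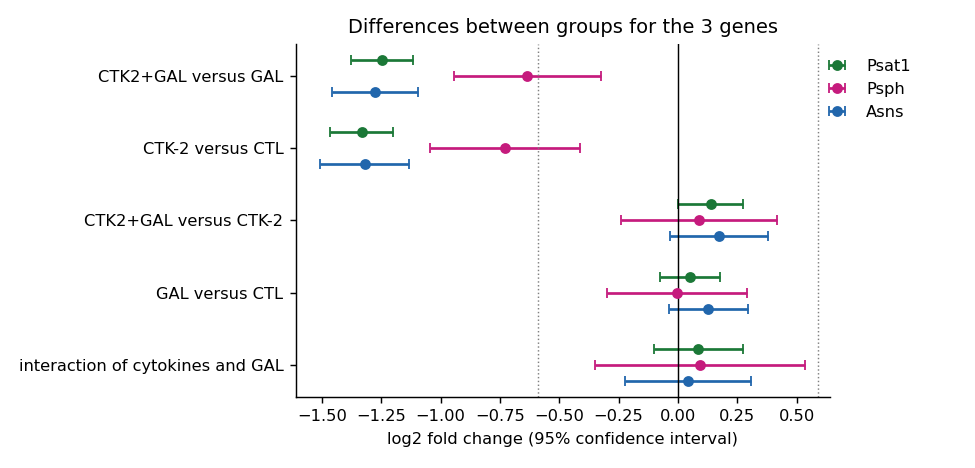
log2 fold change of Psat1, Psph and Asns in the 4 group comparisons and in the interaction of cytokines and galinex; points are edgeR estimates, bars are 95% confidence intervals, and dotted lines mark the fold threshold of 0.59 in each direction. The cytokine comparisons lie between -1.33 and -0.63, and the galinex comparisons and the interaction lie close to 0.

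Galinex was compared with vehicle on both backgrounds, and none of the 3 genes was a DEG. Under cytokines, the log2 fold change of Psat1 in CTK2+GAL versus CTK-2 was 0.14 (95% interval 0.00 to 0.28, unadjusted p = 0.0484 and adjusted p = 1 by edgeR), with 3 of 3 CTK2+GAL libraries above every CTK-2 library. Such a separation in that direction was seen in 5.72% of all genes. Asns differed by 0.17 (95% interval -0.04 to 0.38) and Psph by 0.09 (95% interval -0.24 to 0.42), each with an adjusted p of 1 and with overlapping libraries. The intervals are widest for Psph.

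Without cytokines, Psat1 differed between GAL and CTL by 0.05 (95% interval -0.07 to 0.18) and Asns by 0.13 (95% interval -0.04 to 0.29) on the log2 scale, and neither passed the edgeR test. Asns in GAL was above CTL in 3 of 3 libraries, as in 4.09% of all genes, with an adjusted p of 0.997. Psph differed by 0.00 (95% interval -0.30 to 0.29). Without CTL replicate 3 and GAL replicate 3 the differences were 0.04 for Psat1, 0.02 for Psph and 0.09 for Asns. The interaction, which asks whether cytokines acted differently with galinex present, was 0.09 for Psat1 (95% interval -0.10 to 0.27), 0.09 for Psph (95% interval -0.35 to 0.54) and 0.04 for Asns (95% interval -0.22 to 0.31), with an adjusted p of 1 for each. Without CTL replicate 3 and GAL replicate 3 it was 0.10, 0.07 and 0.08. CTK2+GAL versus GAL shares the CTK2+GAL libraries with CTK2+GAL versus CTK-2, and the GAL libraries with GAL versus CTL.

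These 3 tests called 0% of all genes by edgeR, and DESeq2 called 0 as well. At an unadjusted p under 0.05 there were 545 genes in CTK2+GAL versus CTK-2, 574 in GAL versus CTL and 376 for the interaction by edgeR, and 241, 260 and 123 by DESeq2.

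Ratios within a library do not depend on the library size. Psat1 exceeded Psph per kb by 4.72, 3.77 and 3.77 times in the CTL replicates and by 4.93, 4.05 and 4.16 times in GAL. The ratio was 2.34, 2.63 and 3.12 in CTK-2 and 3.40, 2.60 and 2.56 in CTK2+GAL, so every cytokine library was below every library without cytokines. Between CTK2+GAL and GAL the mean log2 ratio differed by -0.63, with an exact two-sided permutation p of 0.1, the smallest that 3 libraries against 3 allow. Asns to Psph differed by -0.66 between the same groups, without overlap and with the same exact permutation p of 0.1. Asns to Psat1 stayed between 0.224 and 0.285 in all 12 libraries, and the difference of -0.04 between CTK2+GAL and GAL had an exact permutation p of 0.9. Without CTL replicate 3 and GAL replicate 3 the differences of these log2 ratios were -0.66, -0.73 and -0.07 in that order. The 3 ratios share their genes, and no p-value of this design could pass 0.05, so the ratios are a description of these libraries.

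**Figure D3:**
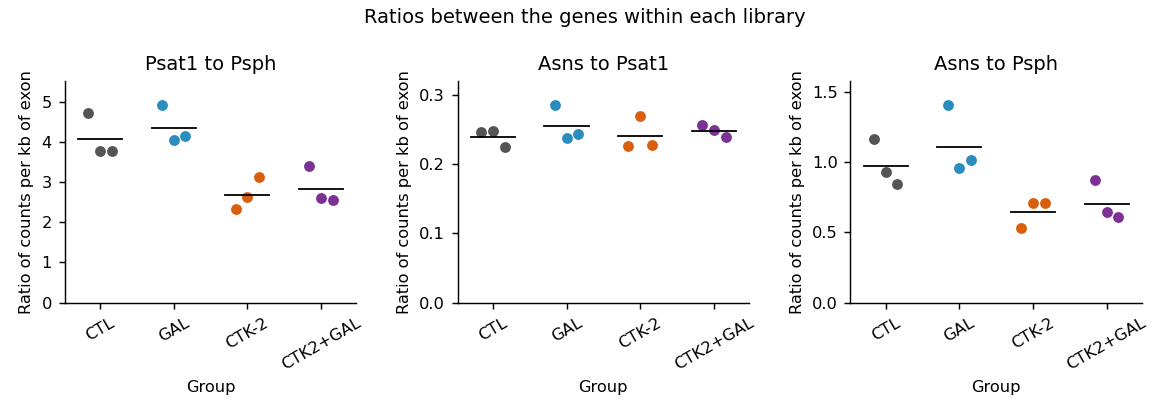
Ratio of Psat1 to Psph, of Asns to Psat1 and of Asns to Psph within each library, from counts per kb of exon on linear axes from 0; points are libraries and lines are geometric means of 3 libraries. The ratio of Psat1 to Psph is 3.77 or higher without cytokines and 3.40 or lower with them, while Asns to Psat1 stays between 0.224 and 0.285.

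The profile over the 12 libraries most like Psat1, among 1738 other genes with a symbol, was that of Hsd17b7, an enzyme of cholesterol synthesis, with a root mean square difference of 0.0741 in centred log2 CPM. Gabrg1, a subunit of GABA-A receptors (0.0771), Chn2, a Rac GTPase-activating protein (0.0844), and the sterol synthesis genes Hmgcs1 (0.0892) and Acat2 (0.0947) came next. For Asns the order was Arhgef10, a guanine nucleotide exchange factor (0.0789), Psat1 (0.0981), Gabrg1 (0.105), Hmgcs1 (0.108) and Acat2 (0.113). Only 6 genes were nearer to Psat1 than Asns was, while 409 were nearer to Psat1 than Psph was and 438 were nearer to Psph than Asns was. The nearest profiles to Psph were Magt1 (0.142), Tst (0.158), Sdf2l1 (0.162), Zfp488 (0.165) and Tnfrsf19 (0.165), at larger distances. Genes with a symbol all differed between CTK-2 and CTL in the study's table, so they share that step in level by construction. Of the 5 nearest genes, 4 were the same for Psat1, 4 for Asns and 3 for Psph without CTL replicate 3 and GAL replicate 3.

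The other genes of serine and amino acid metabolism were taken from fixed lists, and those with a symbol are described for CTK2+GAL versus GAL (edgeR, Benjamini-Hochberg over all genes). Outside the 3 genes, the lists of metabolism and stress response held 23 genes with a symbol, of which 12 were lower, 6 higher and 5 not called. Their median log2 fold change was -0.68, against 0.01 over all genes tested, which is no like comparison because all of these symbols come from DEGs of CTK-2 versus CTL and list genes without a difference there are missing. Of the 16 with a lower level in CTK-2 than in CTL, 12 or 75% were called lower in CTK2+GAL versus GAL, against 81.7% of all such genes with a symbol. Of the 7 with a higher level, 6 or 85.7% were called higher, against 87.7% of all such genes with a symbol. The counts of each list below are to be read against these shares. Leaving out CTL replicate 3 and GAL replicate 3, 21 of the 23 genes kept their call, and Oat (-0.64) and Sptssa (-0.59) were called lower.

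Of the 16 enzymes that pass serine on to glycine and folate, 4 had a symbol and all 4 were lower (median -1.08). Among all genes with a symbol and a lower level in CTK-2, 81.7% were called lower. Shmt2, which makes glycine from serine in mitochondria, went from 129 ± 12.1 CPM in GAL to 67.8 ± 2.86 CPM in CTK2+GAL (SD, n = 3 each), a log2 fold change of -0.91 (adjusted p = 3.31e-09, edgeR). Mthfd1l, which releases formate from the mitochondrial folate pathway, was at -1.45 (adjusted p = 3.35e-08, edgeR) and overlaps 1 annotated gene on its strand. Gcsh, the carrier protein of glycine cleavage, was at -1.25 (adjusted p = 1.26e-07, edgeR). Mthfd2, a mitochondrial folate dehydrogenase, was at -0.92. Sptssa, a small subunit of the enzyme that joins serine to palmitate, was the only 1 of 12 serine-using lipid genes with a symbol and was not called, at -0.46.

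Asns belongs to a list of 20 enzymes of asparagine, glutamine, alanine, proline and related amino acids, of which 5 had a symbol, 2 were lower, 2 higher and 1 not called. Pycr1, which completes proline synthesis, was lower with Asns, at 42.4 ± 5.19 CPM in GAL and 22.4 ± 1.26 CPM in CTK2+GAL (SD, n = 3 each, log2 fold change -0.94, adjusted p = 9.45e-07 by edgeR). Glul, which makes the glutamine that Asns consumes, rose instead, from 152 ± 4.34 to 237 ± 8.68 CPM (SD, n = 3 each, log2 fold change 0.64, adjusted p = 9.89e-08 by edgeR). Ass1, which uses aspartate to make argininosuccinate, had 0, 0 and 1 counts in GAL and 14, 33 and 47 in CTK2+GAL. Oat, a link between ornithine and proline, was at -0.58 and not called.

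Of 17 amino acid transporters, 2 had a symbol and they went opposite ways. Slc7a1, a carrier of arginine and lysine, was lower at -0.85 (adjusted p = 2.66e-08, edgeR), and Slc1a5, a carrier of glutamine, serine and asparagine, was higher at 1.63 (adjusted p = 8.07e-05, edgeR) from a low level of 3.83 ± 1.30 CPM in GAL (SD, n = 3). The cytosolic aminoacyl-tRNA synthetases, which load amino acids onto tRNA, were also mixed, with 5 of 20 holding a symbol. Eprs (RefSeq Eprs1) at -0.74 and Tars1 at -0.68 were lower, Gars at -0.57 and Kars at 0.51 were not called, and Wars1, which is also induced by interferon-γ, was higher at 1.28 (adjusted p = 3.31e-11, edgeR).

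In the list of 15 kinases and factors of the integrated stress response, 2 had a symbol and both were higher. Of all genes with a symbol and a higher level in CTK-2 than in CTL, 87.7% were called higher. Whether these 2 act on the 3 genes was not tested. Eif2ak2, the kinase that double-stranded RNA activates and interferon induces, was at 19.7 ± 9.26 CPM in GAL and 172 ± 7.17 CPM in CTK2+GAL (SD, n = 3 each), a log2 fold change of 3.06 (adjusted p = 5.22e-09, edgeR) that was 3.58 without CTL replicate 3 and GAL replicate 3. Cebpb, a partner of Atf4, was at 2.53 ± 0.492 and 6.40 ± 1.87 CPM (SD, n = 3 each), a log2 fold change of 1.27 (adjusted p = 0.00231, edgeR). Its counts in GAL were low, at 6, 13 and 18. Of the other targets of the response, 3 of 9 held a symbol and all 3 were lower, against 81.7% of all genes with a symbol and a lower level in CTK-2. Chac1, which breaks down glutathione, was at -1.47 (adjusted p = 1.4e-06, edgeR), the lipoprotein receptor gene Vldlr at -0.82 (adjusted p = 6.66e-09, edgeR) and the tRNA export factor gene Xpot at -0.71 (adjusted p = 2.31e-08, edgeR).

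Chaperones of the endoplasmic reticulum had 2 of 12 genes with a symbol. Pdia4, a disulphide isomerase, was lower at -0.69 (adjusted p = 6e-08, edgeR), and Sdf2l1 was at -0.43 and not called. In the interferon list, which shows the response to the cocktail, all 6 of 10 genes with a symbol were higher. Among all genes with a symbol and a higher level in CTK-2, 87.7% were called higher. Cxcl10, a chemokine, went from 0.172 to 176 CPM, Gbp4 from 0.229 to 54.2 CPM and Gbp2 from 2.82 to 218 CPM between GAL and CTK2+GAL, the last 2 being GTPases of host defence. These GAL means rest mostly on GAL replicate 3. It had Gbp2 at 8.08 CPM, against 0.388 and 0 CPM in replicates 1 and 2, and the only GAL counts of Cxcl10 and Gbp4.

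**Figure D4:**
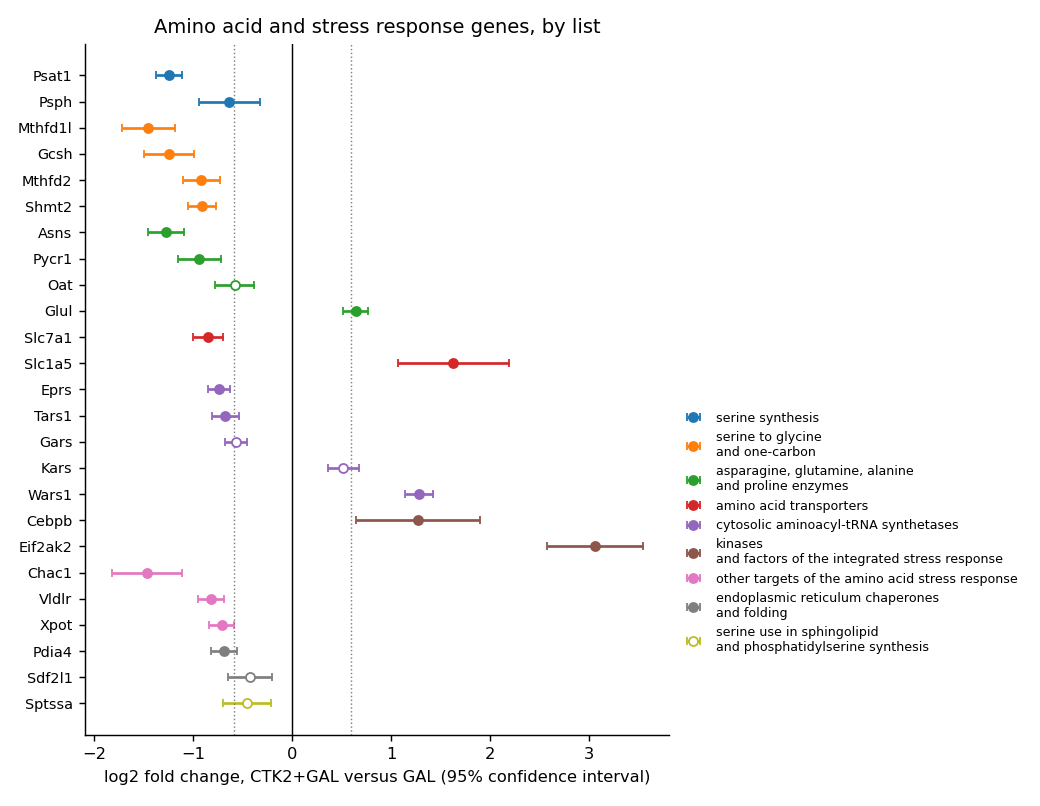
log2 fold change in CTK2+GAL versus GAL of 25 genes of amino acid metabolism and stress response by list, with 95% confidence intervals (edgeR); filled points were called, open points were not, and dotted lines mark 0.59 in each direction. Genes of the lists of serine synthesis and of serine to glycine and folate lie between -1.45 and -0.63. The serine-using lipid gene Sptssa lies at -0.46. Glul, Slc1a5, Wars1, Cebpb and Eif2ak2 lie above 0.59. Ass1, with 1 count in GAL, is not drawn.

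**Figure D5:**
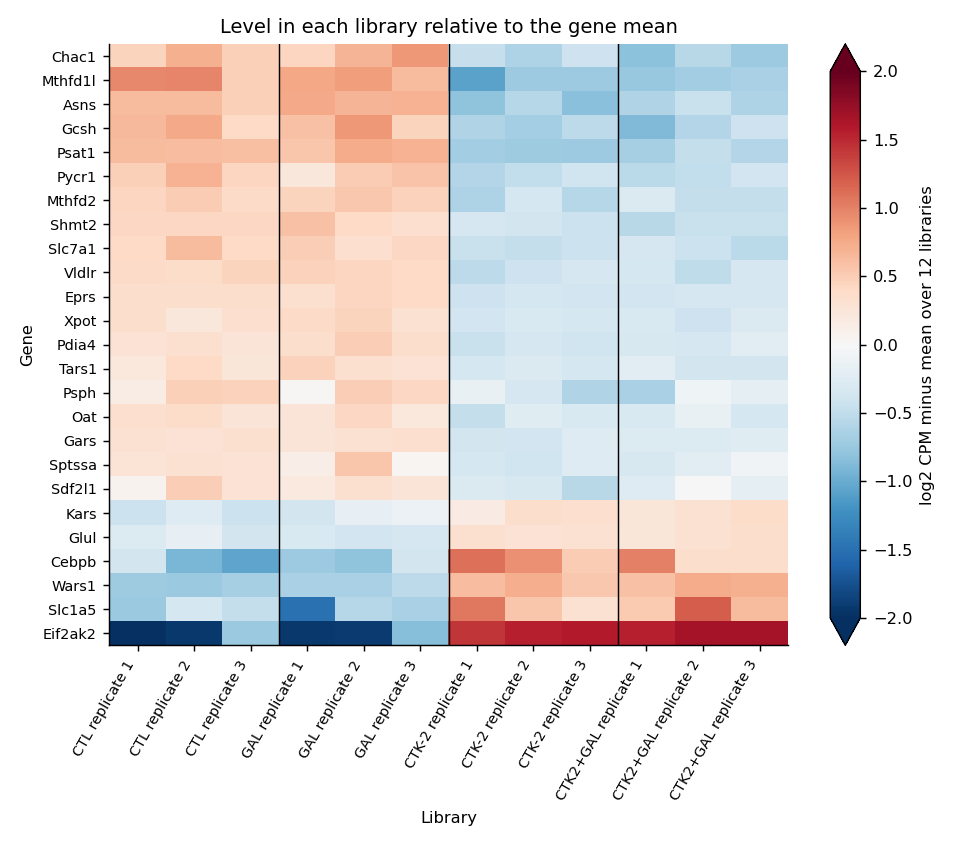
Level of the same 25 genes in each of the 12 libraries as log2 CPM minus the gene's mean over all libraries, with genes ordered by their log2 fold change in CTK2+GAL versus GAL and colours limited to 2 in each direction. Red cells are above and blue cells below the gene's mean; Psat1 and Asns are red in all 6 libraries without cytokines and blue in all 6 with them, Psph is near 0 in GAL replicate 1, and Eif2ak2 is higher in replicate 3 of CTL and GAL than in the other replicates of those groups.

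The letters TGATGNAA, on either strand, were found before the starts of 4 of the 20 other list genes with a promoter window, against 3.98% of all windows. All 4 were among the 11 windows of genes called lower and none among the remaining 9. Of those 9, Oat (-0.58), Sdf2l1 (-0.43) and Sptssa (-0.46) were also lower but not called, and the others were higher. The lists were chosen with earlier results known and include targets of the amino acid stress response, so all windows are no like comparison. The split was not tested, and matches were not counted among all genes called lower. The stretches are shown with the match in capitals because Atf4 and its partners bind such elements, and a match is no evidence of a site in use. Pycr1 is from chr10:106420920-106420959 on the minus strand, Slc7a1 from chr12:11664442-11664481 on the plus strand, Tars1 from chr2:62114806-62114845 on the minus strand and Chac1 from chr3:126795948-126795987 on the plus strand (GRCr8, RefSeq), and in Tars1 and Chac1 the match is on the other strand.
Pycr1: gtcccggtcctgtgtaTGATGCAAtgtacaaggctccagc
Slc7a1: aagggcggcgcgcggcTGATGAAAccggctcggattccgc
Tars1: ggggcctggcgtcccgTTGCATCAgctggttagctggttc
Chac1: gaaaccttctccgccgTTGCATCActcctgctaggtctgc
The matches begin 131, 30, 27 and 167 bases before the start.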

How the data were processed

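The authors deposited raw counts of read pairs per gene, made per the file headers with featureCounts 2.0.0 on exons of Ensembl 112 (mRatBN7.2), reversely stranded, without multi-mapping, overlapping, chimeric or marked duplicate pairs. Whether duplicates had been marked before counting is not given in the sources used here, so PCR duplicates may be among the counts. Reads shared with a near-identical copy of a gene are therefore missing. The authors name FastQC and STAR, whose versions are not given in the sources used here, and their later filters are not in the counts. The symbol join matched 1742 of 1786 table entries to 1 gene, and 99.83% of the 1725 whose chromosome both annotations give had the same one. The p-values in that table were not used. Its fold changes helped to pick the 615 entries, Psat1 among them, from which the scaling of each library in the join was fitted. Psph and Asns were not among these entries. Fold changes also decided ties in the join, of which none concerned Psat1, Psph or Asns.

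Genes whose count averaged 5 or more over the 12 libraries were normalised by TMM and fitted with 1 mean per group by edgeR 4.0.16 (quasi-likelihood test, limma 3.58.1, R 4.3.3), with Benjamini-Hochberg adjustment over all tested genes. The standard error is the size of the log2 fold change over the root of F. The code was tested on simulated data. DESeq2 1.42.0, other size factors, total counts, other filters, 2-group fits, a replicate block, no fold threshold and each library left out were alternatives. Leaving out CTL replicate 3 and GAL replicate 3 together, pairs of CTL and GAL only, and the alternatives for lists, ratios and profiles were chosen after seeing the data.

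The genes, lists and tests were chosen with earlier results of these data known. Named genes are the 3 genes, up to 3 called genes of each list by adjusted p, and the 5 nearest profiles of each gene. The remaining list genes were named after their values were seen, to account for all. Replicate numbers come from the sample titles. Deviations of same-numbered CTL and GAL libraries correlated at 0.378, 0.4 and 0.753, while the other pairs of groups gave -0.022 to 0.102. The best GAL partner of CTL replicate 1 had another number, so these values do not settle whether the numbers mark pairs. The labels do not say that replicates were separate cultures, so p-values measure only the spread between these samples. No 2 replicates of a group agreed within sampling noise (chi-square per degree of freedom 1.63 or higher). Sequences came from RefSeq tables by gene identifier. One marker gene of the fixed lists is not reported here.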

Additional observations from a re-analysis of the deposited data

How the results depend on the processing

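Psat1 and Asns kept their calls in CTK2+GAL versus GAL, and all 3 genes their direction and side of the thresholds in CTK-2 versus CTL, under 22 alternatives each. Without a single library, Psph in CTK2+GAL versus GAL ranged from -0.72 to -0.50 and was not called at -0.55 (without GAL replicate 2) and -0.50 (without CTK2+GAL replicate 1), where 1 of the 2 serine synthesis genes remained called. Values near 0 changed sign without a single library. Psph ranged from -0.0249 to 0.22 in CTK2+GAL versus CTK-2, from -0.10 to 0.0809 in GAL versus CTL and from -0.0191 to 0.23 in the interaction, and Asns from -0.0126 to 0.13 in the interaction. Psph in GAL versus CTL was 0.0205 without CTL replicate 3 and GAL replicate 3. In these comparisons the adjusted p of the 3 genes stayed over 0.05.

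Without the fold threshold, DEGs numbered 5290 in CTK2+GAL versus GAL (2324 with it) and 5213 in CTK-2 versus CTL (2311 with it). GAL versus CTL gave 2 DEGs and the interaction 4 without a filter on low counts, and 4 and 6 without CTL replicate 3 and GAL replicate 3. The same removal called Sptssa at -0.59, 1 serine-using gene against 0, and the cause was not tested. With the replicate block, DEGs numbered 2321 and 2320 in the cytokine comparisons and 0 in the others, and no call of the 3 genes changed. Of 483 values of the 23 other list genes, 476 kept their call and 7 passed the fold threshold (Oat, Gars and Sptssa), with 0 reversed. Psph had 78 to 254 counts in a library, and its spread within groups (11.9% to 20.3% of the mean) exceeded that of Asns (3.15% to 10.1%), which had 110 to 388 counts. The cause of the wider spread was not tested.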
